A study of Mus musculus with 23 samples.

Results

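Cytosolic ribosomal protein genes were described in brain macrophages sorted 1 day after stroke. Genes were selected by symbol alone (Rpl and Rps followed by a number, with paralog endings such as l, a, x or y, plus Rplp0 to Rplp2 and Rpsa, without symbols ending in -ps and without the Rps6k kinases), and this gave 89 of the 33280 genes in the count table, 54 named for the large and 35 for the small ribosomal subunit. Counts were present for 87 of the 89, 77 averaged at least 10 CPM over all libraries (CPM, counts scaled to 1000000 per library), and 81 passed the filter on low counts and were tested. The 8 untested genes were Rpl3l, Rpl6l, Rpl10l, Rpl24, Rpl32l, Rps3a2, Rps3a3 and Rps12l1, of which Rpl32l and Rps12l1 had 0 counts in every library. In the GENCODE vM21 annotation, 84 of the genes had a coding transcript and 5 (Rpl6l, Rpl32l, Rps3a2, Rps3a3, Rps12l1) were processed pseudogenes, copies that arose through reverse transcription.

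All mice were Ccr2creERT2/+ R26tdT/tdT, a line in which tamoxifen gives permanent tdTomato (tdT) to cells that express Ccr2 at that time, chiefly monocytes. For 7 days they were gavaged with BLZ945 at 200 mg/kg, which blocks the CSF1 receptor and thereby depletes macrophages of the brain, or its vehicle (CTL). Tamoxifen at 2 mg per day was given on 3 occasions, which the paper's methods describe as intraperitoneal injections. At 8 weeks after the gavage all mice had an ischemic stroke from thrombin injected into the middle cerebral artery. From coronal slices without choroid plexus, microglia (MG, CD45int CD11b+ CD206-) and subdural CNS-associated macrophages (sdCAMs, CD206int-high), the macrophages of the leptomeninges and of the perivascular space, were sorted, the latter as tdT- and tdT+ cells, after Ly6C+, Ly6G+ and CD11c+ cells had been gated out. There were 5 libraries of MG and 5 of tdT- sdCAMs from each treatment and 3 of tdT+ sdCAMs from BLZ945 mice, 23 in all, with replicates named F1, F2, F3, M1 and M2. No group without stroke and no tdT+ CTL group was analysed here. Each CTL library came from 1 animal, whereas each BLZ945 library pooled 2 animals except those of F2, which came from 1, so pooling and treatment cannot be told apart. The library names give F2 and the M1 pool of BLZ945 mice 1 animal number in common, and results were therefore also computed without F2. A tdT- sdCAM is any sdCAM without the label, so this gate does not separate cells that survived depletion from unlabelled newcomers. Mice of all experiments were aged 10 ± 3 weeks at the first gavage, and the ages of these animals are not given apart.

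A ribosome joins a large and a small subunit, each built of ribosomal RNA and of ribosomal proteins that are mostly encoded by 1 active gene apiece and made in about equal numbers. Their mRNAs typically begin with a 5′ terminal oligopyrimidine (5′TOP) tract, a C followed by a run of C and T (U in the RNA), through which mTOR signalling and the RNA-binding protein Larp1 control their translation as a group. Counts of mRNA do not measure that control. Most ribosomal protein genes also have many processed pseudogenes in the genome, so that a short read can match several places.

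Total counts ranged from 9433960 to 13276081 per library, where the floor of 3 counts stood between 0.226 and 0.318 CPM. Markers matched the sort, with a summed level of 7 microglial genes of 18351 to 28327 CPM in MG against 1480 to 2825 CPM in sdCAM libraries, and of 7 sdCAM genes of 10.6 to 51 CPM in MG against 10002 to 16441 CPM in sdCAMs. Of the genes of other cell types, erythroid genes stood at 313 CPM in tdT- BLZ945 F2 and at most 29.5 CPM elsewhere, and monocyte genes at 233 CPM in tdT- BLZ945 F1, 99.6 CPM in tdT- BLZ945 M1 and at most 45.8 CPM elsewhere. Choroid plexus genes were high in all libraries of the BLZ945 pool F3 (547 CPM in MG, 152 CPM in tdT- and 1750 CPM in tdT+) and at most 81.3 CPM in the others. Of the dendritic-cell genes, Cd209a averaged 441 CPM in tdT- CTL, 86.5 CPM in tdT- BLZ945 and 46.2 CPM in tdT+ BLZ945, whereas Flt3 was at 1.40, 5.16 and 3.87 CPM and Xcr1 and Clec9a were at most 0.0972 CPM on average in each sdCAM group. In these sorted bulk samples, fewer cells of a type and less RNA per cell cannot be told apart.

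The start of the transcripts was read first, because mRNAs of this class typically begin with a 5′TOP tract. RefSeq promoter windows (GRCm38.p6) matched 65 of the 89 genes. A tract was taken as a C followed by at least 4 bases that were each C or T. It had to start within 5 bases of the annotated start, on the strand of the gene. Tracts were found at 32 of the 77 annotated starts of these genes (41.6%), against 18.3% of all 32851 promoter windows. Of the 65 genes, 30 (46.2%) had a tract at 1 or more starts, against 21.2% of all 27025 genes with a window. Among genes tested in any comparison this share was 24.2%. The windows below hold 30 bases centred on the annotated start, with the tract in capitals, and show genes whose levels are described further on. Of those with a tract, Rpl38, Rps9, Rps6, Rplp2 and Rpl35 were higher in tdT- sdCAMs than in MG of BLZ945 mice, Rpl12 was lower in tdT- sdCAMs than in MG of CTL mice, and Rps27 had one of the larger differences between tdT+ and tdT- sdCAMs.
Rpl38, chr11:114668565-114668594 (+): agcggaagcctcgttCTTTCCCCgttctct
Rps9, chr7:3704026-3704055 (+): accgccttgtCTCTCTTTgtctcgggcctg
Rps6, chr4:86857353-86857382 (-): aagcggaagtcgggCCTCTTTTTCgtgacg
Rplp2, chr7:141447636-141447665 (+): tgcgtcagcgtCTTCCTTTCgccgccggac
Rpl35, chr2:39005117-39005146 (-): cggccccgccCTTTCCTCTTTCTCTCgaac
Rps27, chr3:90213634-90213663 (-): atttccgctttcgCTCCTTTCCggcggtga
Rpl12, chr2:32961697-32961726 (+): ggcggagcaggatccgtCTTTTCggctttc

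The same search found no tract in the windows of Rpl37a and Rps3a1, 2 genes that were higher in tdT- sdCAMs than in MG of BLZ945 mice, nor in those of Rpl4 and Rpl5, which were lower in tdT- sdCAMs than in MG of CTL mice. No match says only that these letters were not at the annotated start. In the Rpl4 window, a pyrimidine run lies upstream of the stretch that was searched.
Rpl37a, chr1:72711245-72711274 (+): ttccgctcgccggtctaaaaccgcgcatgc
Rps3a1, chr3:86142654-86142683 (-): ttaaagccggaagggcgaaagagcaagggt
Rpl4, chr9:64173372-64173401 (+): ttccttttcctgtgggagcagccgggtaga
Rpl5, chr5:107900513-107900542 (+): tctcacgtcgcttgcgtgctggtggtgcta

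Together the 89 genes took 0.715% to 1.49% of all counts in a library. The mean of log2(CPM + 1) over the 89 genes was 5.96 ± 0.10 in MG CTL, 5.66 ± 0.19 in MG BLZ945, 5.87 ± 0.25 in tdT- CTL and 5.98 ± 0.27 in tdT- BLZ945 (SD, n = 5 each). It was 6.24 ± 0.24 in tdT+ BLZ945 (SD, n = 3). In replicates F1, F2, F3, M1 and M2, this mean was 5.89, 5.89, 5.93, 5.99 and 6.12 in MG CTL and 5.61, 5.84, 5.87, 5.52 and 5.45 in MG BLZ945. All 5 MG BLZ945 libraries lay below all 5 MG CTL libraries, by a narrow margin for F2 and F3. In the same order it was 5.75, 5.69, 6.08, 5.65 and 6.19 in tdT- CTL and 5.79, 6.44, 5.99, 5.79 and 5.90 in tdT- BLZ945. It was 6.51, 6.10 and 6.10 in tdT+ BLZ945 F2, F3 and M2. The 3 sdCAM groups overlapped one another. Animal F2 of the BLZ945 mice was the highest library of both its sdCAM groups.

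**Figure D1:**
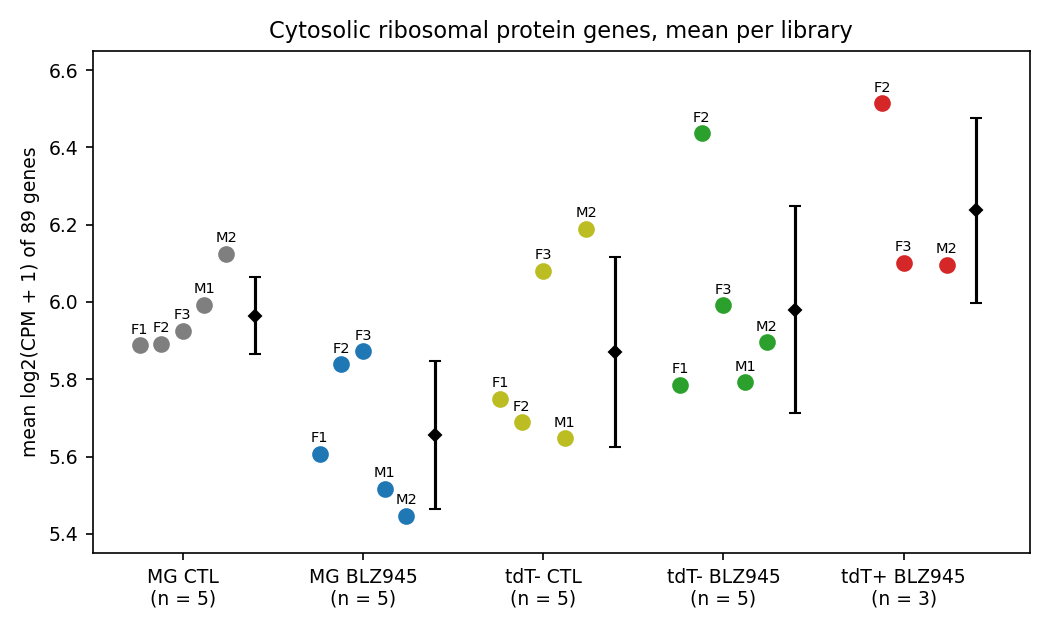
Mean log2(CPM + 1) of the 89 ribosomal protein genes (y axis) in each of 23 libraries, by group (x axis). Coloured points are libraries with their replicate names, and black diamonds with bars are the group mean ± SD. MG BLZ945 libraries (5.45 to 5.87) lie below MG CTL libraries (5.89 to 6.12), while the sdCAM groups overlap.

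The genes moved together. Over the 77 genes with at least 10 CPM, 76.2% of the variance within groups lay on the first principal component, on which 76 of the 77 had the same sign, and the median correlation between pairs of genes was 0.776. These libraries share total depth and scaling, so this is a description of the table. Animal F2 had the highest value of its group for 70 of the 77 genes in tdT- BLZ945 and for 74 in tdT+ BLZ945. Among CTL mice, M2 had the highest value for 55 genes in MG and for 59 in tdT- sdCAMs. Exceptions to the shared movement were visible by gene. Rpl4, whose protein lines the exit tunnel of the large subunit, was lowest in tdT- BLZ945 F2 (287 CPM, against 403 to 506 CPM in the other 4 libraries of that group), where most of the genes were highest. The order of the genes by level hardly differed between groups, with rank correlations of 0.953 to 0.991 between group means over the 77 genes.

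**Figure D2:**
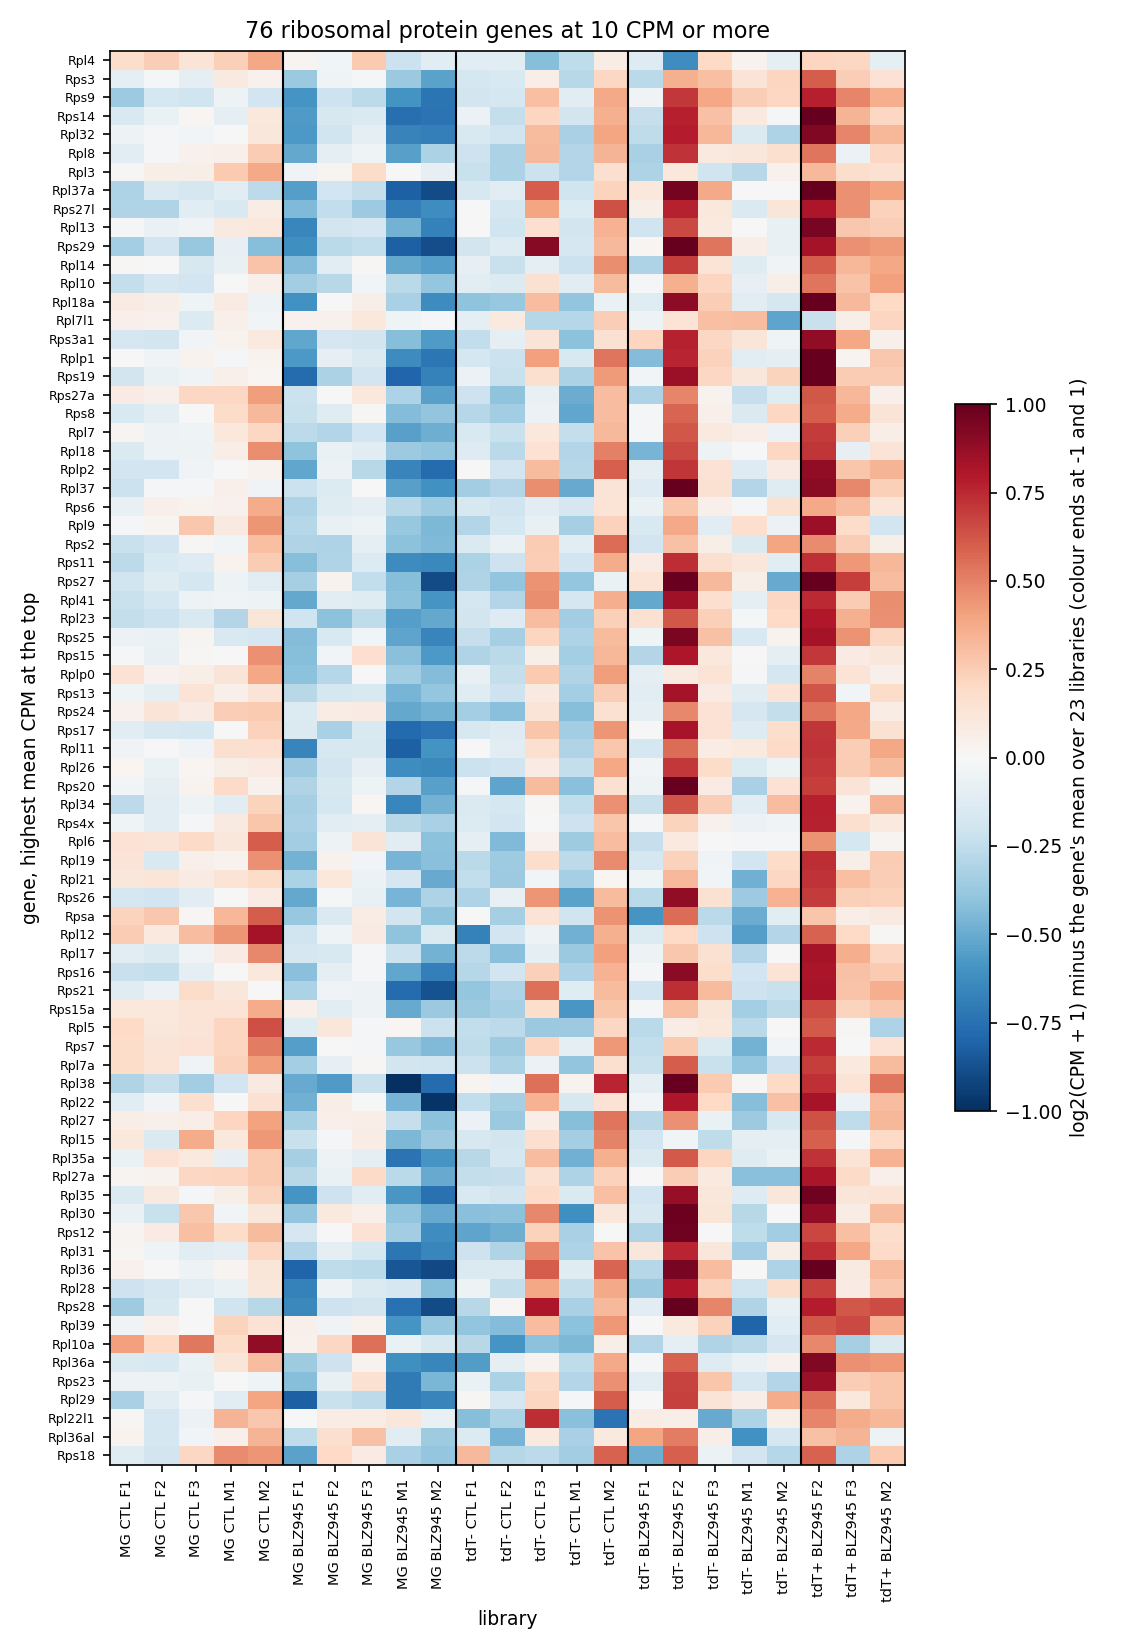
Each row is 1 of 76 of the 77 genes with at least 10 CPM (highest mean level at the top) and each column a library, ordered by group. Colour is log2(CPM + 1) minus the mean of the gene over the 23 libraries, with colours ending at -1 and 1, and the whole columns of tdT- BLZ945 F2 and tdT+ BLZ945 F2 hold the highest value of their group for 70 and 74 of the 77 genes.

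Levels between genes were compared as CPM per kb of coding sequence, averaged over all 23 libraries, for the 84 genes with a coding transcript. Values ran from 0.0289 CPM per kb for Rpl3l to 1674 CPM per kb for Rpl41, and 10 genes (Rpl4, Rps3, Rps9, Rps14, Rpl32, Rpl8, Rpl3, Rpl37a, Rps27l and Rpl13) held 29.9% of the summed CPM. Genes outside the quartiles by more than 1.5 interquartile ranges on the log2 scale were Rpl41, which encodes the smallest ribosomal protein, and Rps29 (1215 CPM per kb), a zinc-binding protein of the small subunit, on the high side. Their coding sequences are short parts of the transcript, 75 of 437 bases for Rpl41 and 168 of 390 for Rps29. Reads can also come from the rest of the transcript, so these high values depend on the divisor. Levels per kb of transcript were not computed. On the low side were Rpl3l, Rpl10l, Rpl24, Rps10, Rpl13a, Rpl39l, Rpl23a and Rps18. Rpl3l and Rpl10l, paralogs known from striated muscle and testis, had at most 2 and 5 counts in any library. Rpl24, Rpl23a, Rps10, Rps18 and Rpl13a are core components of every ribosome, yet their mean levels were 0.456, 8.12, 2.76, 13.8 and 8.36 CPM.

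Those low values were set beside how far each gene can be told from its copies. For each of the 84 genes, the share of 50-base windows of its transcript that occur in no transcript of another annotated gene was computed (GENCODE vM21). This share was 18.3% for Rpl24, 14.3% for Rpl23a, 7.57% for Rps10, 13.3% for Rps18 and 42.6% for Rpl13a, and it was 100% for Rpl3l and Rpl39l. The median level rose from 157 CPM per kb in the 27 genes with under 25% particular windows to 207 in the 26 genes at 25 to 50%, 300.0 in the 18 genes at 50 to 75% and 278 in the 13 genes above that. Across the 84 genes Spearman's rho was 0.378, and it was 0.499 across the 77 with at least 10 CPM, given as a description since these genes share libraries and base composition. Rps27 went against this order, with 503 CPM per kb and the fewest particular windows. How reads with several matches were counted is not stated, so levels of genes with few particular windows are uncertain, and their part in each difference between groups was not tested. Medians are therefore also given below for the 31 genes with at least 50% particular windows, of which 29 were tested.

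**Figure D3:**
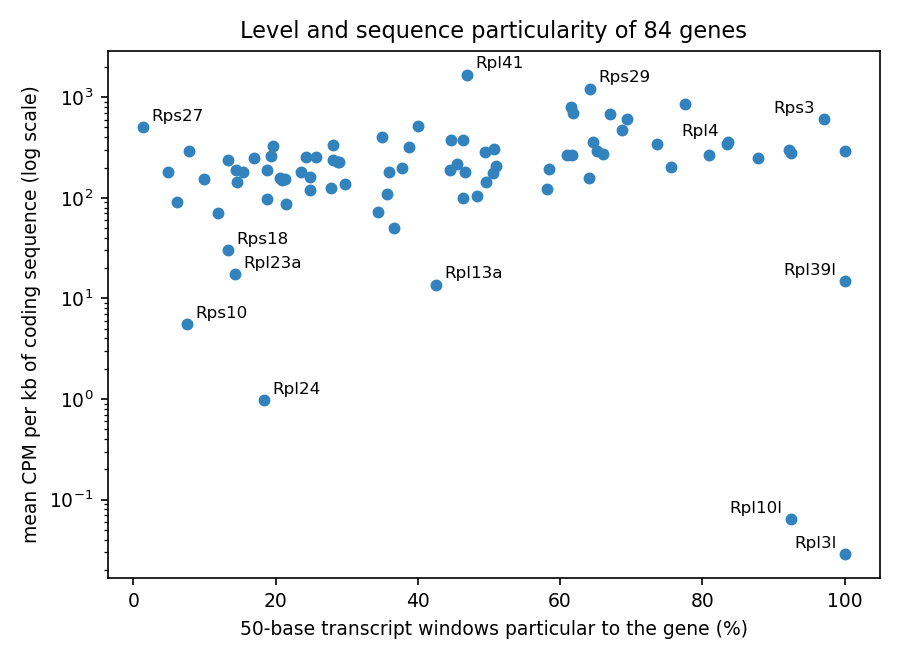
Mean CPM per kb of coding sequence over 23 libraries (y axis, log scale) against the percentage of 50-base transcript windows particular to the gene (x axis) for 84 ribosomal protein genes. Rps18, Rpl23a, Rps10 and Rpl24 lie low with under 25% particular windows, whereas Rpl39l, Rpl10l and Rpl3l lie low although they are well separated from other genes.

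Whether depletion and recovery left a difference in microglia was asked by comparing MG BLZ945 with MG CTL. Most ribosomal protein mRNAs averaged lower in MG of BLZ945 mice, but no gene passed the test. Of the 81 tested genes, 78 had a negative log2 fold change, with a median of -0.34 against 0.00 for all 11264 genes tested. Values ran from -0.64 to 0.04. By edgeR's quasi-likelihood test with Benjamini-Hochberg adjustment over all genes, 0 of the 81 were called at an adjusted p under 0.05, where the background was 0.408% of all genes, or 0.16% in the lower direction. At an unadjusted p under 0.05, 60 of the 81 were lower and 0 higher, against 6.23% and 7.01% of all genes. In 16 of the 81 all MG BLZ945 libraries lay below all MG CTL libraries, against a background of 1.36%. DESeq2 called 13 of them, all lower (among them Rpl11, Rpl12, Rpl36, Rplp0, Rps19 and Rpsa), edgeR without the filter on low counts called 7, and edgeR without the BLZ945 animal F2 called Rpl11 and Rpl36. Background shares here and below are those of the main edgeR fit, and shares of all genes in the alternative fits are not given. The summed level of B-cell genes was also lower in MG of BLZ945 mice, at 286.1 to 516 CPM in MG CTL and 188 to 300.3 CPM in MG BLZ945, with an overlap. Most of it was Ighm (344.7 and 229 CPM on average) and Cd79b (37.9 and 7.57 CPM). The part of B cells in the difference was not tested.

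Rpl36, a large-subunit protein, had the lowest p of these genes and stood apart from the other 80. Its CPM in F1, F2, F3, M1 and M2 was 57.5, 55.7, 53.8, 56.9 and 60.8 in MG CTL and 31.6, 46.7, 46.0, 30.4 and 29.3 in MG BLZ945. The groups did not overlap, and F2 and F3 were again the closest to CTL (log2 fold change -0.64 ± 0.15 SE, edgeR adjusted p = 0.0696). Rpl11, which with Rpl5 carries 5S rRNA into the ribosome and can bind Mdm2, the ubiquitin ligase of p53, was at 98.8, 102, 99.3, 113 and 114 CPM in MG CTL and at 63.8, 90.8, 90.7, 57.2 and 66.6 CPM in MG BLZ945. These groups did not overlap either (-0.53 ± 0.13, adjusted p = 0.0921). For Rps6, the substrate of the S6 kinases, values were 128, 140, 138, 139 and 175 CPM against 109, 124, 126, 111 and 105 CPM, with all 5 BLZ945 libraries lower. The 3 genes with a positive value were Rpl39l, Rps10 and Rpl7l1, of which Rpl39l and Rps10 were under 10 CPM.

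The difference had a similar size in each subset of the genes. The median was -0.34 for the 49 large-subunit and -0.33 for the 32 small-subunit genes tested, and it was -0.33 for the 29 tested genes with at least 50% particular windows and -0.35 for the 52 with fewer. It was also -0.34 both for the 29 tested genes with a tract at the start and for the 32 with a window but no tract. Rack1, a protein of the small subunit that the symbol rule does not take, had a log2 fold change of -0.35 ± 0.11, and Fau, whose product is cleaved to a small-subunit protein, of -0.34 ± 0.13; neither was called.

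Rpl7l1, a paralog of Rpl7, had nearly equal levels in both groups (log2 fold change 0.02 ± 0.09). In F1, F2, F3, M1 and M2 it was at 190, 189, 167, 190 and 180 CPM in MG CTL and at 189, 189, 197, 178 and 181 CPM in MG BLZ945, which is a full overlap. Rpl7 was at 144, 137, 138, 152 and 164 CPM in MG CTL and at 118, 115, 124, 96.6 and 101 CPM in MG BLZ945, with no overlap. Per kb of coding sequence, the share of Rpl7l1 in the pair was 57.8% ± 2.1 in MG CTL and 65.0% ± 1.5 in MG BLZ945 (SD, n = 5 each), with ranges of 54.7 to 60.2% and 63.6 to 66.9%. Among sdCAMs it averaged 58.2% for tdT- CTL, 56.8% for tdT- BLZ945 and 53.2% for tdT+ BLZ945, and these overlapped. The share of Rpl36al in the pair with Rpl36a was 26.7% ± 1.4 in MG CTL and 30.6% ± 2.2 in MG BLZ945, and that of Rpl22l1 with Rpl22 was 27.1% ± 3.2 and 32.6% ± 5.7, both with overlapping ranges. Rps27l, a target of p53 in other settings, made up 63.1% ± 2.4 and 61.9% ± 3.6 of its pair with Rps27 in these groups.

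In sdCAMs without the label, tdT- BLZ945 and tdT- CTL did not differ for any of these genes by the test. Of the 81, 0 were called and 0 had an unadjusted p under 0.05 in either direction, and DESeq2 also called 0. The background was 0.0% called and 2.57% higher and 2.76% lower at an unadjusted p under 0.05, over 13076 genes. The median log2 fold change was 0.15 against 0.00 for all genes, with 68 of 81 positive, and without the BLZ945 animal F2 it was 0.01. It was 0.20 for the 29 tested genes with at least 50% particular windows and 0.13 for the 52 others. Without tdT- CTL M2 it was 0.25 and without tdT- CTL M1 0.09. Rps3a1, a small-subunit protein near the mRNA exit, had the lowest p among positive values. It was at 147, 163, 190, 131 and 193 CPM in tdT- CTL (F1, F2, F3, M1, M2) and at 203, 297, 202, 189 and 169 CPM in tdT- BLZ945, which overlapped (0.37 ± 0.19, unadjusted p = 0.063, edgeR adjusted p = 0.968). Library tdT- BLZ945 F2, which held the erythroid genes, was the highest of them, and the part of those cells in its values was not tested. Genes detected after thinning to 9433960 counts also differed without overlap (12733 to 14451 in tdT- BLZ945 and 14531 to 15232 in tdT- CTL). So did the summed dendritic-cell genes, mostly Cd209a (31.2 to 160 CPM in tdT- BLZ945 and 219 to 780 CPM in tdT- CTL). The part of these in the comparison was not tested.

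The label separates sdCAMs descended from Ccr2+ cells, and tdT+ BLZ945 was compared with tdT- BLZ945 and with tdT- CTL. These 2 comparisons share the tdT+ libraries. Ribosomal protein genes were higher in tdT+ than in tdT- sdCAMs of BLZ945 mice for 77 of 81, with a median log2 fold change of 0.27 against -0.02 for all genes, but 0 were called (background 0.206%). At an unadjusted p under 0.05, 2 were higher and 1 lower, against 2.39% and 4.51% of all genes, and with the animal or pool as a replicate block the counts were 0 and 0. The median was 0.28 for genes with at least 50% particular windows and 0.27 for the others, and it was 0.11 without tdT+ BLZ945 F2 and 0.44 without tdT- BLZ945 F2, and 0.15 with the replicate block. In 5 genes all tdT+ libraries lay above all tdT- libraries (background 1.77%). B-cell genes were also higher, with a summed level of 256.7 to 396 CPM in tdT+ BLZ945 against 174 to 253 CPM in tdT- BLZ945, mostly Ighm (280 and 208 CPM on average) and Cd79b (31.4 and 4.32 CPM), and their part was not tested. Within the animal F2 and each of the pools F3 and M2 the mean over the 89 genes was higher in tdT+ cells, by 0.08 in F2, 0.11 in F3 and 0.20 in M2 on the log2 scale, and 53, 54 and 66 of the 77 genes with at least 10 CPM were higher.

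Against tdT- CTL, 79 of 81 were positive, with a median of 0.43 against -0.03 for all genes, and 0 were called (background 0.283%). At an unadjusted p under 0.05, 29 were higher and 1 was lower, against 2.64% and 4.8% of all genes. This count rested on the BLZ945 animal F2, without which it was 2 higher and 1 lower and the median was 0.24. The median was 0.45 for genes with at least 50% particular windows and 0.41 for the others. These groups also differed without overlap in the genes detected after thinning to 9433960 counts (13917 to 14166 in tdT+ BLZ945 and 14531 to 15232 in tdT- CTL), in the summed sdCAM genes (10002 to 13255 and 13354 to 16385 CPM) and in the summed dendritic-cell genes, mostly Cd209a (34.8 to 84.5 and 219 to 780 CPM), and the part of these in the result was not tested. Rps27, a zinc-binding small-subunit protein, had the largest fitted value of the 81 against tdT- CTL (0.89 ± 0.29, edgeR adjusted p = 0.428), with 279, 193 and 148 CPM in tdT+ F2, F3 and M2 against 96.8, 90.3, 163, 90.9 and 114 CPM. The M2 value lay within the tdT- CTL range.

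Rpl39l had the opposite sign. This paralog of Rpl39, known from testis, had 0 counts in all 3 tdT+ libraries. In F1, F2, F3, M1 and M2 it was at 0.750, 1.84, 0, 1.55 and 2.12 CPM in tdT- BLZ945 and at 5.89, 3.24, 1.78, 0.388 and 4.05 CPM in tdT- CTL, and it averaged 2.99 ± 2.27 CPM in MG CTL and 3.06 ± 2.37 CPM in MG BLZ945 (SD, n = 5 each). The tdT+ libraries lay below every tdT- CTL library, and equal to 1 tdT- BLZ945 library. The edgeR adjusted p was 0.45 against tdT- BLZ945 and 0.209 against tdT- CTL, while DESeq2 called it in both comparisons, as did edgeR fitted to all 23 libraries against tdT- CTL. At these levels a library held at most 74 counts of the gene. Rpl13a, which also leaves the ribosome to act in interferon responses of macrophages, also had low fitted values in both comparisons (-0.36 ± 0.51 and -0.61 ± 0.52), at 8.23, 5.94 and 4.11 CPM in tdT+ libraries against 7.70 ± 1.65 CPM in tdT- BLZ945 and 9.27 ± 1.5 CPM in tdT- CTL (SD, n = 5 each), and it was not called.

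**Figure D4:**
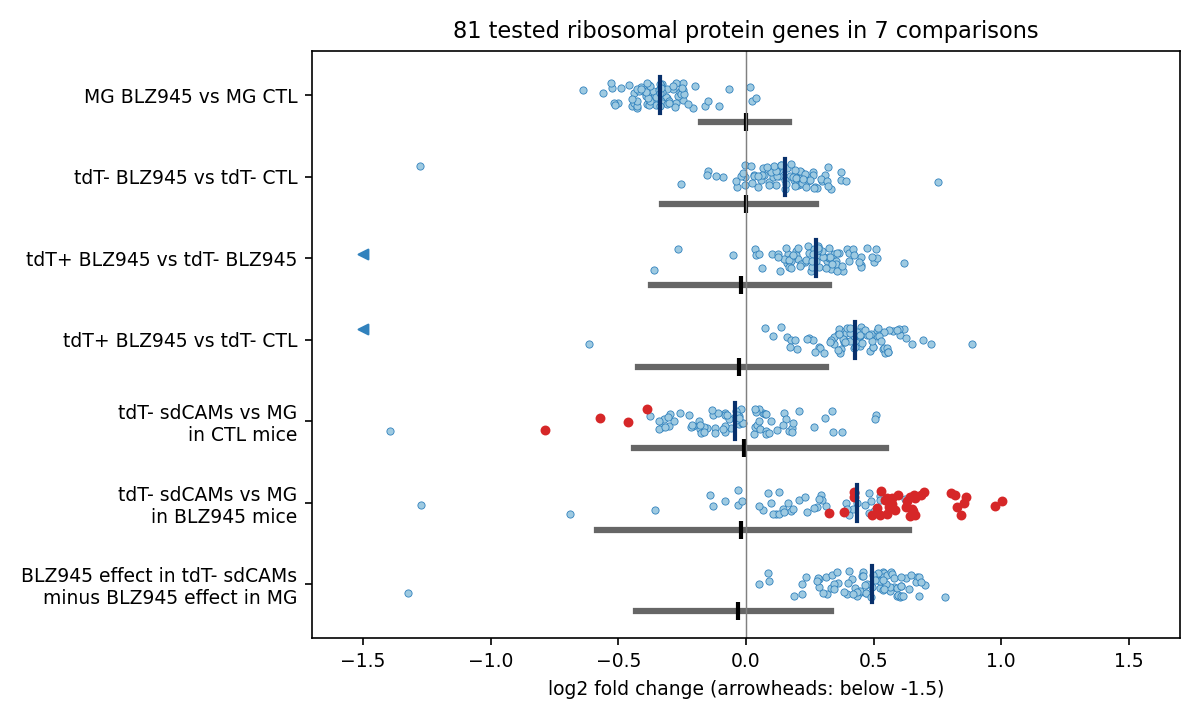
Log2 fold change (x axis) of the 81 tested genes in 7 comparisons (y axis). Points are genes, with the 4 and the 35 called by edgeR at an adjusted p under 0.05 in red, blue bars are their medians, grey bars span the quartiles of all genes tested with a black mark at their median, and arrowheads stand for Rpl39l below -1.5. Most points lie left of 0 in MG BLZ945 against MG CTL (78 of 81) and right of 0 in tdT- sdCAMs against MG of BLZ945 mice (72 of 81).

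The populations themselves were compared within each treatment, where MG and tdT- sdCAMs of the same replicate name came from the same animal or pool. In CTL mice the ribosomal protein genes had a median log2 fold change (tdT- sdCAMs against MG) of -0.04, near the -0.01 of all genes, with 31 of 81 positive. Of the 81, 4 fell and 0 rose, against a background of 25.6% called, 10.3% of all genes lower and 15.3% higher, so the share of called genes was below that of all genes. The 4 were large-subunit genes. With the animal as a replicate block 8 were called, all lower, with library totals as the only scaling 13, and without the filter on low counts 2. These counts have no share of all genes from the same fits beside them. When the libraries of the BLZ945 animal F2, which enter the fit but not this comparison, were left out, 7 were called, of which 6 were lower and Rpl38 higher. Leaving out MG CTL M2 or tdT- CTL M1 left only Rpl10a, whereas 9 were called without tdT- CTL M2. With 1 library left out, the median ran from -0.14 without tdT- CTL M2 or tdT- CTL F3 to 0.00 without tdT- CTL F2 and 0.01 without tdT- CTL M1. With library totals as the only scaling it was -0.17, against -0.13 for all genes.

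Rpl10a, the protein of the mobile L1 stalk, which guides the leaving tRNA, showed the largest fall. It was at 59.5, 51.2, 64.6, 50.6 and 83.4 CPM in MG CTL and at 36.5, 29.3, 33.4, 32.4 and 46.5 CPM in tdT- CTL (F1, F2, F3, M1, M2). The groups did not overlap (-0.79 ± 0.18, edgeR adjusted p = 0.00188). Rpl12, at the base of the stalk that binds translation factors, was at 99.8, 89.5, 104, 114 and 150 CPM against 52.1, 73.3, 80.6, 59.8 and 107 CPM, so that it was lower in tdT- sdCAMs of every animal although M2 overlapped with the MG range (-0.57 ± 0.19, adjusted p = 0.0259). Rpl5, the 5S rRNA partner of Rpl11, was at 91.2, 85.7, 86.9, 92.4 and 125 CPM against 66.7, 66.2, 61.2, 61.3 and 91.5 CPM, again lower in every animal and with overlap through M2 (-0.46 ± 0.14, adjusted p = 0.0184). Rpl4 was at 499, 524, 482, 520 and 577 CPM against 409, 407, 328, 370 and 465 CPM, with no overlap (-0.39 ± 0.13, adjusted p = 0.0354). Of the 10 fits that left out 1 library, the call of Rpl4 was lost in 7, that of Rpl12 in 3, that of Rpl5 in 2 and that of Rpl10a in 0. Of these genes, Rpl10a and Rpl5 are hard to tell from their copies, with 11.9% and 6.16% particular windows, against 50.6% for Rpl12 and 83.5% for Rpl4. The median was -0.03 for the 29 tested genes with at least 50% particular windows and -0.08 for the 52 others, with 2 called in each. Rps10 had a larger fitted value at a level under 6 CPM in every CTL library (-1.39 ± 0.70, adjusted p = 0.162).

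In BLZ945 mice the called genes lay in the other direction. Of the 81 genes, 35 rose and 0 fell in tdT- sdCAMs against MG, where the background was 32.4% called, 18.3% of all genes higher and 14.1% lower. The median was 0.44 against -0.02 for all 12697 genes, 72 of 81 were positive, and in 15 genes all tdT- libraries lay above all MG libraries (background 10.4%). The 35 comprised 19 of the large and 16 of the small subunit. Among genes with at least 50% particular windows 12 of the 29 tested rose (median 0.50), and among the others 23 of 52 (median 0.42). Among genes with a tract at the start 10 of 29 rose (median 0.42), and among those with a window but no tract 15 of 32 (median 0.41). The count depended on few libraries: it was 19 without tdT- BLZ945 F2, 22 without MG BLZ945 M2 and 20 without all libraries of animal F2, and all 20 were among the 35. The median was 0.26 without tdT- BLZ945 F2. With library totals as the only scaling, 20 rose and 1 fell. That scaling moved the median of all genes to -0.17 (and to -0.13 in CTL mice). DESeq2 called 45 and the fit with a replicate block 43, which included all 35. The shares of all genes called by these fits are not given. These populations also differed in the make-up of their libraries. The 50 genes with most counts took 25.5 to 30.5% of counts in tdT- BLZ945 and 23.9 to 26.7% in MG BLZ945, with tdT- BLZ945 F2 the highest of all 23 libraries. With each library thinned to 9433960 counts, 12733 to 14451 genes were detected in tdT- BLZ945, 13671 to 16192 in MG BLZ945 and 14531 to 15232 in tdT- CTL. Genes of neurons, astrocytes and fibroblasts were also higher in tdT- BLZ945 than in MG BLZ945 without overlap. The summed level was 54.2 to 136 CPM against 6.43 to 14.5 CPM for neurons. For astrocytes it was 49.4 to 187 CPM against 4.74 to 13.0 CPM, and for fibroblasts 15.3 to 57.2 CPM against 0.169 to 2.39 CPM. Oligodendrocyte genes (59.3 to 133 CPM in tdT- BLZ945 and 58.4 to 110 CPM in MG BLZ945) and endothelial genes (4.08 to 27.3 and 10.3 to 23.4 CPM) overlapped. The neuronal and fibroblast sums of tdT- BLZ945 were highest in F2. In CTL mice the neuronal, astrocyte and fibroblast sums did not overlap between the populations either. The part of library make-up and of cells of other types in the 35 calls was not tested.

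Rps29, Rpl38 and Rpl37a had the largest values among genes that rose. Rps29 was at 124, 158, 160, 108 and 102 CPM in MG BLZ945 and at 192, 449, 276, 199 and 180 CPM in tdT- BLZ945 (F1, F2, F3, M1, M2). The groups did not overlap, and F2 was far above the other 4 tdT- libraries (1.00 ± 0.24, edgeR adjusted p = 0.00285). Rpl38, a large-subunit protein whose loss in mice alters translation of Hox mRNAs, was at 51.7, 49.4, 62.8, 33.5 and 42.7 CPM against 68.8, 153, 88.4, 74.0 and 84.4 CPM, also without overlap (0.98 ± 0.22, adjusted p = 0.00147). Rpl37a, a zinc-binding large-subunit protein, was at 142, 181, 176, 117 and 111 CPM against 223, 405, 270, 207 and 207 CPM (0.86 ± 0.19, adjusted p = 0.00157). Rps9, at the mRNA entry of the small subunit and the gene with the lowest p, was at 256, 333, 320, 254 and 231 CPM against 376, 629, 505, 457 and 445 CPM (0.80 ± 0.15, adjusted p = 0.000233). Both were without overlap.

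Several genes of known role were among the 35. Rps19, the gene most often mutated in Diamond-Blackfan anaemia, was at 90, 124, 135, 88.9 and 96.6 CPM in MG and at 151, 281, 179, 167 and 180 CPM in tdT- sdCAMs (0.85 ± 0.17, edgeR adjusted p = 0.000589). Of the stalk proteins that recruit translation factors, Rplp1 and Rplp2 rose and Rplp0 was not called. Rps3, which also has a part in DNA repair, Rps6 and Rpl11 rose, while Rpl5, Rpsa, the laminin-binding protein of the small subunit, and Rps27a, a ubiquitin fusion, were not called. Rpl10a had the lowest p among negative values, at 45.9, 51.6, 65.9, 42.6 and 39.8 CPM in MG and at 36.2, 41.9, 36, 36.7 and 39.6 CPM in tdT- sdCAMs (-0.36 ± 0.18, adjusted p = 0.13). It was lower in tdT- sdCAMs of every animal or pool, as in CTL mice.

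Within animals, the mean log2(CPM + 1) over the 89 genes was higher in tdT- sdCAMs than in MG of all 5 BLZ945 replicates, by 0.18, 0.60, 0.12, 0.28 and 0.45 in F1, F2, F3, M1 and M2 (mean 0.32 ± 0.20 SD). In CTL mice the difference was -0.14, -0.20, 0.15, -0.35 and 0.06 (mean -0.09 ± 0.20 SD, n = 5). Of the 77 genes with at least 10 CPM, 65, 72, 57, 61 and 73 were higher in tdT- sdCAMs of these BLZ945 replicates, and 21, 15, 56, 3 and 51 in those of CTL mice. The ranges of the per-animal difference overlapped between treatments, F3 of the CTL mice being above F3 of the BLZ945 mice.

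**Figure D5:**
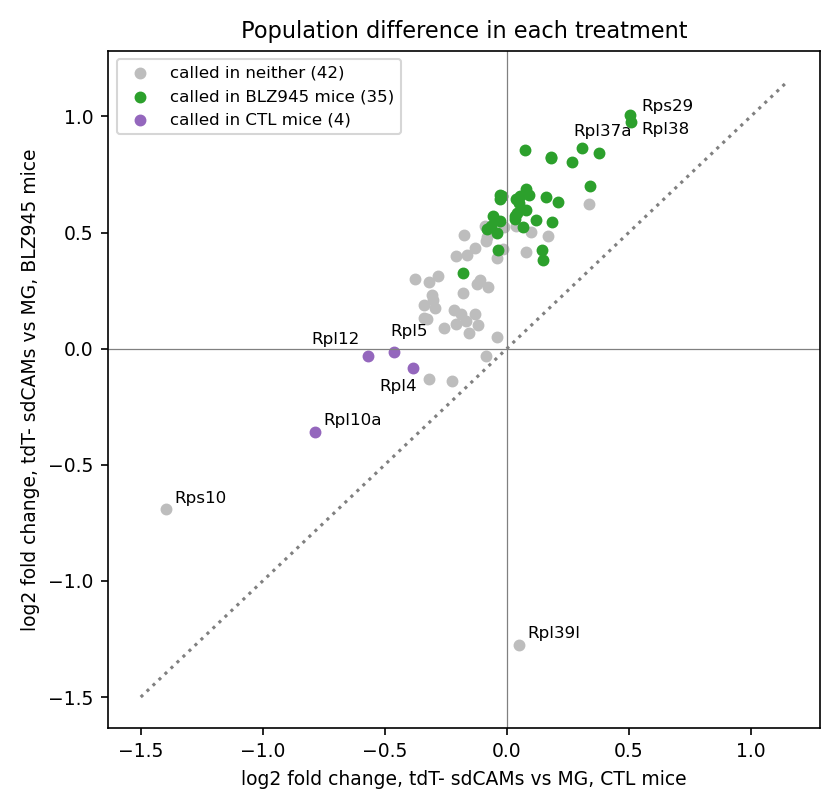
Log2 fold change of tdT- sdCAMs against MG in CTL mice (x axis) and in BLZ945 mice (y axis) for the 81 tested genes, coloured by the comparison in which edgeR called them (35 in BLZ945 mice, 4 in CTL mice, 42 in neither). The dotted line marks equal values, and 80 of the 81 genes lie above it, with Rpl39l below.

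The difference between these comparisons was tested directly, as the BLZ945 effect in tdT- sdCAMs minus that in MG. Of the 81 genes 80 were positive, with a median of 0.49 (0.52 with at least 50% particular windows, 0.47 for the others) against -0.03 for all genes, but 0 were called (background 0.0394%). At an unadjusted p under 0.05, 30 were higher and 0 lower, against 3.79% and 4.91% of all genes. With a replicate block 54 were higher, and without the BLZ945 animal F2 the count was 23. For both of these fits the share of all genes is not given. DESeq2 called 1 gene, Rps6. Rps3a1 had the lowest edgeR p (0.69 ± 0.21, adjusted p = 0.288). The larger number of genes called between populations in BLZ945 than in CTL mice is therefore not shown, gene by gene, to be a difference between treatments.

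Other genes of the translation machinery were set beside these values as lists. The 79 genes of the mitochondrial ribosome, which is built separately, had a median of -0.18 in MG BLZ945 against MG CTL, with 68 negative and 0 called, and in tdT- sdCAMs against MG of BLZ945 mice 18 rose and 1 fell (median 0.26), which is 22.8% and 1.27% against 18.3% and 14.1% of all genes. Of 19 other transcripts listed as 5′TOP mRNAs, such as Tpt1 and Eef1a1, 12 had a promoter window, and the search found a tract in 6 of these. In MG BLZ945 against MG CTL, 18 of the 19 were negative (median -0.25), 0 were called and 10 (52.6%) were lower at an unadjusted p under 0.05, against 6.23% of all genes. This list holds Fau and shares genes such as Eef1a1 and Eif3f with that of the translation factors. Between populations of BLZ945 mice 3 of the 19 rose, Fau, Tpt1 and Eif3f, and 0 fell (median 0.03), a share of 15.8% higher that is near the 18.3% of all genes. The 36 translation factors had medians of -0.07 and -0.01 in these comparisons, with 0 called in the former and 5 higher (13.9%) and 2 lower (5.56%) in the latter.

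Genes that build ribosomes were listed apart from these. The 34 ribosome biogenesis genes had a median of 0.02 in MG BLZ945 against MG CTL with 0 called, and in tdT- sdCAMs against MG their median was -0.28 in CTL mice (0 higher, 3 or 8.82% lower) and -0.23 in BLZ945 mice (2 or 5.88% higher, 8 or 23.5% lower). Of all genes, 15.3% were higher and 10.3% lower in CTL mice and 18.3% and 14.1% in BLZ945 mice. Of 17 genes that control ribosome synthesis in growth, 4 (23.5%) fell in tdT- sdCAMs of CTL mice, and 2 (11.8%) rose and 5 (29.4%) fell in those of BLZ945 mice. Myc, which drives transcription of ribosomal genes, was among those that fell, with log2 fold changes of -1.56 ± 0.24 (edgeR adjusted p = 2.42e-05) and -0.86 ± 0.23 (adjusted p = 0.00661). Rptor, a subunit of the mTOR complex that controls 5′TOP translation, fell by 1.91 ± 0.55 and by 2.2 ± 0.56 on the log2 scale. Of the 237 rows named as ribosomal protein pseudogenes, 179 had a count, 21 were tested and 0 were called between populations in either treatment, with medians of -0.15 in CTL and 0.39 in BLZ945 mice.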

How the data were processed

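Counts per gene were deposited as 1 table, in which the authors aligned reads of SMART-Seq mRNA LP libraries (about 500 pg of total RNA) with STAR 2.7.11a and counted them with featureCounts 2.0.6, per the labels. Strand setting, treatment of multi-mapping reads and the genome build of this series are not given in the sources used here. Members and lists were chosen with earlier results of these data known.

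Library totals were taken over all rows (9433960 to 13276081), 9482 of which had 0 counts. CPM are counts over the total times the TMM factor of the 23 libraries, and log2 values had a pseudocount of 1. Tests were edgeR 4.0.16 quasi-likelihood fits (R 4.3.3; TMM, filterByExpr) with Benjamini-Hochberg adjustment over all genes tested and calls at 0.05. The 2 MG groups, the 3 sdCAM groups, and MG with tdT- sdCAMs were each fitted together. DESeq2 1.42.0, other scalings and filters, a replicate block and leaving out each library were alternatives, and leaving out the BLZ945 animal F2 was added after seeing the data. Fits were tested on simulated data. The p-values of the pooled libraries refer to pools. Other list medians and counts are descriptions.

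Named genes were those with up to 3 largest called changes each way per comparison, else the lowest p, values over 3 scaled MADs from the median of the members, outlying levels, fixed paralog pairs and genes of known role. Rpl4, Rps9, Rps27 and Rpl35 as examples, and the genes named from other lists and by alternatives, were chosen after their values were seen. Within a treatment, replicate names mark the same animal or pool, from the labels: deviations of MG and tdT- libraries of 1 name correlated by 0.117 on average (0.078 to 0.195) in CTL and 0.087 (0.033 to 0.175) in BLZ945 mice. Between treatments the names pair nothing, yet MG libraries of 1 name correlated by 0.0733 on average (0.00777 to 0.192). For tdT- libraries of 1 name the mean was 3.91e-06 (-0.0831 to 0.0458). The pairing therefore rests on the labels, not on these correlations. Some genes that this rule takes are not reported here.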

Additional observations from a re-analysis of the deposited data

Results flagged for a closer look

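In each group of 5 libraries, the highest and lowest library of each named gene was set against the gap to its neighbour, and of 152 such groups 9 had 1 library far from the others, where chance flags about 1 in 20. The 9 are near that rate. Since the genes moved together, flags of 1 library in several genes are not independent of one another. In MG CTL the flagged library was M2 for Rack1 (335.9 CPM, the others 243.8 to 264.9 CPM), Rpl5 (124.6 CPM, the others 85.7 to 92.4 CPM) and Rps6 (174.7 CPM, the others 127.7 to 139.7 CPM). In tdT- CTL it was F3 for Rpl22l1 (43.5 CPM, the others 15 to 20.4 CPM) and M2 for Rpl3 (251.7 CPM, the others 180.2 to 193.2 CPM) and Rpl5 (91.5 CPM, the others 61.2 to 66.7 CPM). Rpl5 was thus apart in both populations of CTL animal M2. Its fall between them passed the test no longer without MG CTL M2 (log2 fold change -0.35, edgeR adjusted p = 0.0739) or without tdT- CTL M1 (-0.42, adjusted p = 0.0512), and its log2 fold change stayed between -0.59 and -0.35 whichever library was left out. In tdT- BLZ945 it was F2 for Rpl36a (67.2 CPM, the others 40.4 to 45.6 CPM), Rpl7 (218.0 CPM, the others 136.2 to 151.4 CPM) and Rps19 (281.0 CPM, the others 151.3 to 180.5 CPM).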

How the results depend on the processing

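Medians over the ribosomal protein genes kept their sign under each alternative scaling, filter and tool and under the replicate block. Leaving out 1 library moved the median of tdT- sdCAMs against MG in CTL mice between -0.14 and 0.01, and that of BLZ945 mice between 0.26 and 0.52. It moved the median of tdT+ BLZ945 against tdT- BLZ945 between 0.11 and 0.44 and against tdT- CTL between 0.24 and 0.52, the lowest values being without tdT+ BLZ945 F2, and that of tdT- BLZ945 against tdT- CTL between 0.01 and 0.25. Numbers called were less stable, and the cause was not tested. In MG BLZ945 against MG CTL, 0 genes became 13 with DESeq2, 7 without the filter and 2 without the BLZ945 animal F2, and 0 to 2 when 1 library was left out. Rpl39l alone was called with DESeq2 in tdT+ BLZ945 against either tdT- group (1 gene each) and by edgeR over all 23 libraries against tdT- CTL (1 gene). In tdT- sdCAMs against MG of CTL mice, 4 became 13 with library totals, 2 without the filter, 7 without the BLZ945 animal F2 and 1 to 9 when 1 library was left out. In BLZ945 mice, 35 became 21 with library totals, 20 without that animal and 19 to 42 when 1 library was left out. DESeq2 called 1 gene for the difference between the treatments' effects. With the replicate block, 4 became 8 in CTL mice, and in BLZ945 mice 35 became 43. Between treatments, where the name is only a shared label, the block left 0 called. Genes under 10 CPM, such as Rpl39l and Rps10, had low counts, with at most 74 in any library for either gene.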
